A study of Rattus norvegicus with 12 samples.

Results

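T cells and natural killer (NK) cells are the lymphocytes that recognise presented antigen or stressed cells, and 10 of their genes were followed here in the lungs of rats with monocrotaline-induced pulmonary hypertension (MCT rats). The genes were taken by symbol from a list: Cd3d, Cd3e, Cd3g, Cd4, Cd8a, Cd8b, Gzmb, Prf1, Nkg7 and Foxp3. All 10 members were found, each with 1 gene model, among the 19687 genes of the series. Lung RNA was sequenced from 12 rats aged 9 weeks, all given MCT at 60 mg/kg, a plant toxin that injures the pulmonary vessels. Groups of 3 rats received PBS vehicle, angiotensin II (AngII, labelled Angiotensin 2) at 1 mg/kg/day, TRV023 at 10 µg/kg/min, which is 14.4 mg/kg/day, or losartan. The losartan dose was 10 mg/kg/day. AngII is the natural agonist of the AT1 receptor, TRV023 is a peptide agonist biased toward beta-arrestin, and losartan is a blocker of the same receptor. No group without MCT was analysed here, and the doses differ between drugs. A name such as Ang2_931 gives the group and the number of the rat, and each rat gave 1 library.

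CD3 gamma, delta and epsilon (Cd3g, Cd3d, Cd3e) carry the signal of the T cell receptor into the cell and are found on essentially all mature T cells. CD4 and CD8 are the coreceptors for class II and class I antigen presentation, but in rats CD4 is also carried by monocytes and macrophages, and CD8 alpha without CD8 beta by NK cells. Perforin (Prf1) opens the target membrane to granzyme B (Gzmb), Nkg7 is a membrane protein of cytotoxic granules, and Foxp3 is the transcription factor of regulatory T cells.

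The CD3 genes lie together. In the coordinates of the deposited tables, whose genome build is not given in the sources used here, Cd3g is at chr8:47892831-47898776 on the minus strand, Cd3d at chr8:47900377-47905113 on the plus strand and Cd3e at chr8:47915626-47926788 on the minus strand. The 3 genes span 33958 bases, with 1600 bases between Cd3g and Cd3d, which are transcribed away from each other, and 10512 bases between Cd3d and Cd3e. Cd8a (chr4:164017633-164021869, plus) and Cd8b (chr4:163964375-163980435, plus) are neighbours on chromosome 4, which also holds Cd4 (chr4:224400830-224425954, minus). The other members are Gzmb (chr15:39296942-39300403, minus), Prf1 (chr20:32706313-32711803, plus), Nkg7 (chr1:99569680-99570751, minus) and Foxp3 (chrX:16544710-16553413, minus).

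The promoters of the CD3 genes are shown because Cd3d and Cd3g had the smallest p values of the members for AngII against vehicle and lie beside Cd3e. AngII had the highest group mean for 8 of the 10 members, all but Cd4 and Gzmb. The share of all genes with their highest mean in AngII was not counted. RefSeq held a promoter for 8 of the 10 members, all but Cd4 and Cd8b. The sequences are the 250 bases before the RefSeq start in GRCr8, 5′ to 3′ on the strand of the gene, at chr8:54185269-54185518 (plus) for Cd3d, chr8:54211771-54212020 (minus) for Cd3e and chr8:54183919-54184168 (minus) for Cd3g. Capitals mark GGAA on either strand, the core bound by ETS transcription factors.
Cd3d: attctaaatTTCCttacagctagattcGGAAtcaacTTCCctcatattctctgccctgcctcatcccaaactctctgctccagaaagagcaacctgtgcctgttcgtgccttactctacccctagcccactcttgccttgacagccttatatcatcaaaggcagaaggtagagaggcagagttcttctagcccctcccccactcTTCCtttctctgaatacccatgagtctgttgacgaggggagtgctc
Cd3e: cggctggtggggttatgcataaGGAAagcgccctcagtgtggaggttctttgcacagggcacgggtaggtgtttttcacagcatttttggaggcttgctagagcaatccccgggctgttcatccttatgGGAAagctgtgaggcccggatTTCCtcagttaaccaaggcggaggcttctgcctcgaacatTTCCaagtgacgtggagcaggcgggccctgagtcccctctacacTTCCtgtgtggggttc
Cd3g: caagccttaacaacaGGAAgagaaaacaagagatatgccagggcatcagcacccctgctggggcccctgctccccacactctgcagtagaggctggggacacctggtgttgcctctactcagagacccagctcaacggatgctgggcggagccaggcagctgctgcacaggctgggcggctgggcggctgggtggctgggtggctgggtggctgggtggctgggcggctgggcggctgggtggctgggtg
GGAA was found 4 times for Cd3d, 5 times for Cd3e and 1 time for Cd3g, and 93.2% of 33469 rat promoters of this length held at least 1 match. The E-box CANNTG was absent from the Cd3d window, present 1 time for Cd3e and 2 times for Cd3g, and present in 65.5% of promoters. These are matches of letters only.

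In AngII-treated rats, the transcripts of the CD3 chains were at their highest group means, but edgeR called none of the 10 members in any comparison after adjustment, and DESeq2 called 1, Cd3g, in comparisons between drugs and among the 4 groups. Cd3d was 2.02 times the vehicle level (log2 fold change 1.02, SE 0.34) and Cd3g 1.84 times (0.88, SE 0.29). Gzmb, the granzyme that enters target cells, was 2.98 times the vehicle level with losartan (1.58, SE 0.66), a value that rested on Los_925. Its edgeR unadjusted p was under 0.05 in 1 of 6 fits with 1 library left out. The other tested members were 1.04 to 1.40 times vehicle with AngII, with intervals that included 0 on the log2 scale.

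Levels are given in FPKM, the read count scaled to gene length and to the counted reads of the library, so that genes can be compared. Averaged over the 12 libraries, Cd4 was at 52.2 FPKM, Cd3g at 14.9, Nkg7 at 14.1, Cd3e at 11.6, Cd3d at 9.25, Cd8a at 7.45, Prf1 at 4.74, Cd8b at 1.41, Gzmb at 0.607 and Foxp3 at 0.595. Cd4 was 2.4 to 10.5 times Cd3e within a library, with the lowest ratio in Ang2_931 and the highest in Trv_917. Cd8a was 3.08 to 19.1 times Cd8b, with the extremes in Los_925 and Los_965, where Cd8b rested on 79 and 7 reads. In a piece of lung, fewer cells of a type and less RNA per cell cannot be told apart, and this holds for every level below. Counted reads per library were 16106337 to 20096877, with the lowest in Trv_917.

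Cd3d was at 7.77, 6.01 and 10.05 FPKM in Veh_923, Veh_924 and Veh_963, and at 14.1, 19.4 and 10.4 in Ang2_922, Ang2_931 and Ang2_933. Under TRV023 it was at 4.30, 6.44 and 11.6 FPKM in Trv_917, Trv_918 and Trv_930, and under losartan at 7.0, 5.34 and 8.66 in Los_925, Los_964 and Los_965. All AngII libraries lay above all vehicle and losartan libraries, whereas TRV023 overlapped AngII through Trv_930 and overlapped vehicle. The group means were 7.94 ± 2.02 FPKM in vehicle (SD, n = 3 per group), 14.6 ± 4.50 with AngII, 7.43 ± 3.73 with TRV023 and 7.0 ± 1.66 with losartan. The log2 fold change for AngII was 1.02 (95% interval 0.25 to 1.79, unadjusted p = 0.0153, edgeR adjusted p = 0.372).

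Cd3g was at 13.1, 8.94 and 18.9 FPKM in the vehicle rats and at 24.1, 23.6 and 21.0 FPKM in the AngII rats, in the same order of animals. With TRV023 it was at 10.5, 12.4 and 13.0 FPKM, and with losartan at 15.2, 7.12 and 11.2 FPKM. The 3 AngII libraries were the highest of the 12, and no other group was separate from vehicle. The log2 fold change for AngII was 0.88 (SE 0.29, 95% interval 0.22 to 1.54, unadjusted p = 0.0152, edgeR adjusted p = 0.372). When each library of this comparison was left out in turn, Cd3g was under an unadjusted p of 0.05 in 6 of 6 fits (log2 fold change 0.65 to 1.19) and Cd3d in 4 of 6. Cd3d was at 0.73 without Ang2_931 and 0.85 without Veh_924, the fits in which it was not.

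Cd3e, the chain with the most even vehicle group, differed from the other chains. It was at 10.8, 12.9 and 13.3 FPKM in vehicle and at 17.98, 20.1 and 9.26 FPKM in Ang2_922, Ang2_931 and Ang2_933. Thus Ang2_933, which was above all vehicle rats for Cd3d and Cd3g, was below all of them for Cd3e. The TRV023 values were 4.72, 7.46 and 13.1 FPKM, and the losartan values 12.1, 7.08 and 10.4 FPKM. The log2 fold change was 0.49 for AngII (SE 0.29, 95% interval -0.17 to 1.15, edgeR adjusted p = 0.511), -0.55 for TRV023 (SE 0.35, edgeR adjusted p = 0.966) and -0.29 for losartan (SE 0.23, edgeR adjusted p = 0.9999). Leaving out 1 library mattered: without Ang2_933 the AngII value was 0.76 (unadjusted p = 0.00955), and without Trv_930 the TRV023 value was -1.03 (unadjusted p = 0.00723).

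**Figure D1:**
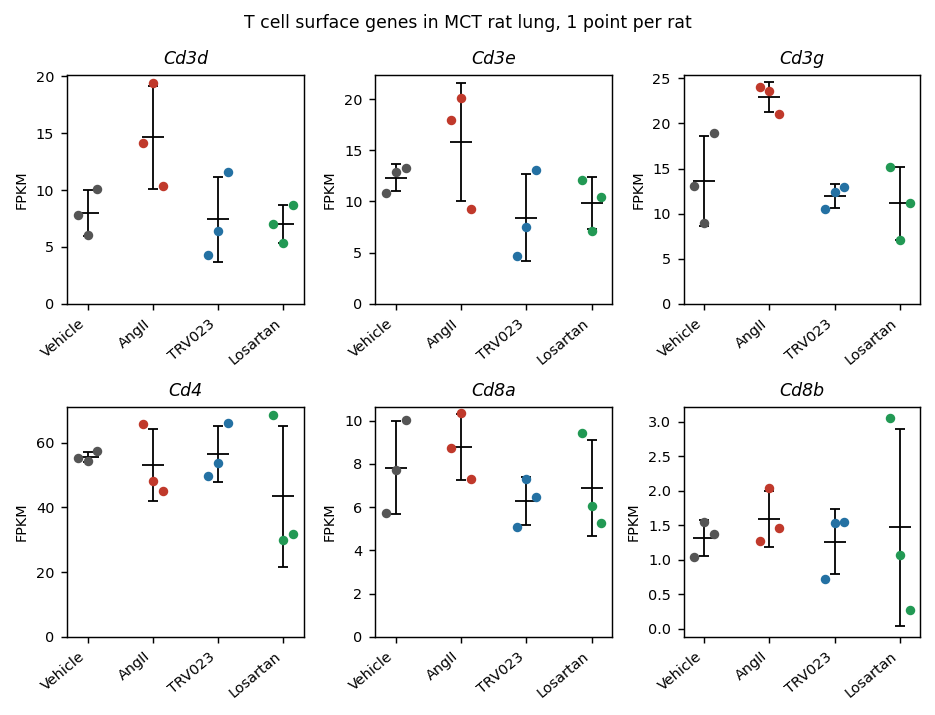
FPKM of the CD3 chains and coreceptors (vertical axes, starting at 0 or just below) in the 4 groups of 3 MCT rats, with 1 point per rat and bars for mean and SD. The AngII points of Cd3g, from 21.0 to 24.1, sit above all other points of that panel, and the losartan group is split for Cd4 and Cd8b.

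Cd4, the class II coreceptor that rat macrophages also carry, was at 55.3, 54.2 and 57.4 FPKM in vehicle, 65.8, 48.3 and 45.1 with AngII, and 49.7, 53.7 and 66.1 with TRV023. With losartan it was at 68.6 FPKM in Los_925 but at 30.0 and 31.8 in Los_964 and Los_965. The vehicle rats were nearly equal, and the losartan group held both the highest and the lowest libraries. The losartan log2 fold change was -0.34 (SE 0.26, edgeR adjusted p = 0.9999), and without Los_925 it was -0.74 (unadjusted p = 9.59e-04). For AngII the value was 0.06 (SE 0.14, 95% interval -0.26 to 0.38), and its sign turned with scaling by library totals, to -0.07. FPKM is on that total scale, under which the median of all genes for AngII was -0.16, against -0.02 with TMM normalization (log2).

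Cd8a was at 5.74, 7.70 and 10.04 FPKM in vehicle, 8.73, 10.3 and 7.31 with AngII, 5.10, 7.31 and 6.45 with TRV023, and 9.43, 6.03 and 5.25 with losartan. Its partner Cd8b was at 1.04, 1.55 and 1.37 FPKM in vehicle, 1.27, 2.04 and 1.47 with AngII, 0.713, 1.52 and 1.55 with TRV023, and 3.06, 1.07 and 0.275 with losartan. All groups overlapped for both genes. Log2 fold changes of Cd8a against vehicle were 0.30 (AngII), -0.32 (TRV023) and -0.15 (losartan), with SE from 0.27 to 0.30, and those of Cd8b were 0.41, -0.07 and 0.16, with SE from 0.44 to 0.73.

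Prf1 was at 4.38, 4.58 and 5.23 FPKM in vehicle, 5.33, 3.86 and 5.97 with AngII, and 3.42, 6.83 and 4.04 with TRV023. In the losartan group it was at 9.09 FPKM in Los_925, 1.21 in Los_964 and 2.99 in Los_965. Thus Los_925 was the highest and Los_964 the lowest of the 12 libraries, a range of 7.51-fold within the group. Nkg7 had the same extremes: 15.4, 15.1 and 12.5 FPKM in vehicle, 14.1, 14.8 and 18.7 with AngII, 12.7, 13.6 and 18.5 with TRV023, and 19.7, 4.13 and 9.98 with losartan. The losartan log2 fold changes were -0.11 for Prf1 (SE 0.58) and -0.34 for Nkg7 (SE 0.45). Without Los_925 they were -1.09 (unadjusted p = 0.0330) and -0.94 (unadjusted p = 0.0455), and without Los_964 they were 0.32 and 0.03.

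Gzmb, which was measured from 1 to 63 reads per library, did not follow Prf1. It was at 0.510, 0.352 and 0.270 FPKM in vehicle, 0.0362, 0.289 and 0.236 with AngII, 0.800, 0.675 and 0.722 with TRV023, and 2.16, 0.434 and 0.800 with losartan. All TRV023 libraries were above all vehicle libraries, the AngII libraries overlapped vehicle, and Los_925 was again the highest. For TRV023 the log2 fold change was 0.95 (SE 0.48, unadjusted p = 0.0812, edgeR adjusted p = 0.945). For losartan it was 1.58 (SE 0.66, 95% interval 0.06 to 3.09, unadjusted p = 0.0433, edgeR adjusted p = 0.9999) and 0.80 (unadjusted p = 0.268) without Los_925. With 1 library left out the losartan value was 0.80 to 1.93. It was under an unadjusted p of 0.05 in 1 of 6 such fits, the fit without Los_964. Gzmb was removed by the count filter in the AngII comparison, where 1, 8 and 6 reads stood against 15, 10 and 8 in vehicle, and DESeq2, which kept it, gave a log2 fold change of -0.84 (unadjusted p = 0.462) and no adjusted p. How reads shared with the related granzyme genes were counted is not given in the sources used here.

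Foxp3 was at 0.853, 0.191 and 0.735 FPKM in vehicle (13 to 60 reads), 0.682, 1.03 and 0.477 with AngII, 0.617, 0.494 and 0.590 with TRV023, and 0.301, 0.528 and 0.641 with losartan. The lowest value was in a vehicle rat, Veh_924, and the groups overlapped. Its log2 fold changes were 0.44, -0.07 and -0.21, with SE from 0.55 to 0.63.

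**Figure D2:**
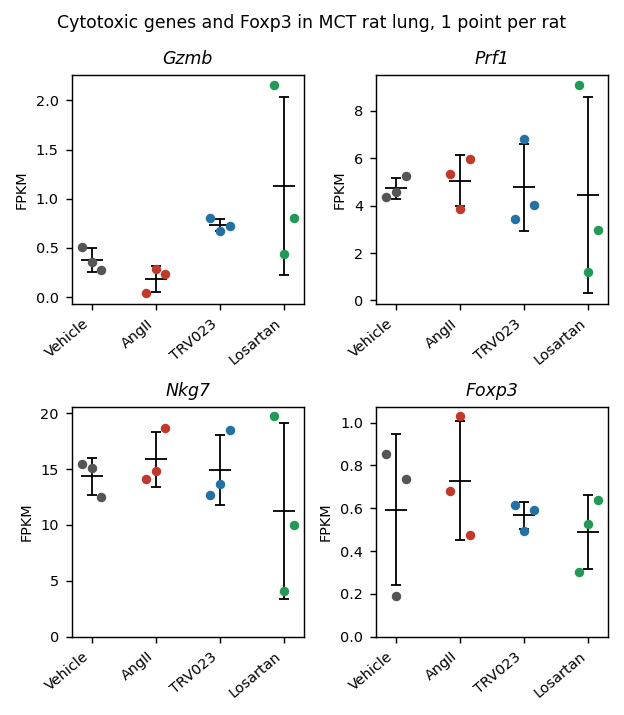
FPKM of the cytotoxic genes and Foxp3 in the 4 groups, with 1 point per rat and bars for mean and SD. The losartan group has the widest spread for Gzmb, Prf1 and Nkg7, with Los_925 at 2.16, 9.09 and 19.7 FPKM.

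Against vehicle, edgeR called 0 of 9 tested members for AngII (background 0.0133% of 15059 genes), 0 of 10 for TRV023 (0.00658% of 15193) and 0 of 10 for losartan (0% of 15156). At an unadjusted p under 0.05, 2 of 9 members were higher with AngII, Cd3d and Cd3g, against 6.54% of all genes, and 0 were lower, against 5.39%. For TRV023 the counts were 0 higher (2.61% of all genes) and 0 lower (2.96%). For losartan 1 member was higher, Gzmb (0.686% of all genes), and 0 lower (0.963%). DESeq2 also called 0 members in these 3 comparisons, with 2, 0 and 1 at an unadjusted p under 0.05.

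The members' median log2 fold change was 0.41 for AngII, with all 9 tested members above 0. Over all genes the median was -0.02, and 7136 of 15059 were above 0. The member not tested was Gzmb, which the count filter removed and which DESeq2 put at -0.84. The members' median was -0.07 for TRV023 and -0.18 for losartan, where the medians of all genes were -0.0016 and 0.0063. The 3 comparisons share the vehicle rats. These medians moved when single libraries were left out. For AngII the median was 0.53 without Veh_963, over 9 members. It was 0.21 without Ang2_931, over 10 members, a set that then held Gzmb. With limma on log2(FPKM + 1) it was 0.16 over 8 members, and the median of all genes was -0.13. The last 2 values therefore also differ from 0.41 in their members, and the limma value in its scale. The TRV023 median was 0.13 without Trv_917, 0.069 without Veh_963, -0.19 without Trv_930 and -0.14 without Veh_924. The losartan median was -0.44 without Los_925, -0.045 without Los_964, -0.28 without Veh_924 and 0.015 without Veh_963. With Veh_963, Los_964 and Los_965 all left out, which kept 1 losartan rat, it was 0.36. FPKM of the groups did not overlap, with AngII higher, for Cd3d and Cd3g, against 4.95% of all genes, and with AngII lower for 0 members, against 16.5%. With TRV023 this held for Gzmb on the higher side (4.99% of all genes) and for 0 members on the lower side (5.23%), and with losartan for 0 members on either side (1.96% higher, 3.62% lower).

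**Figure D3:**
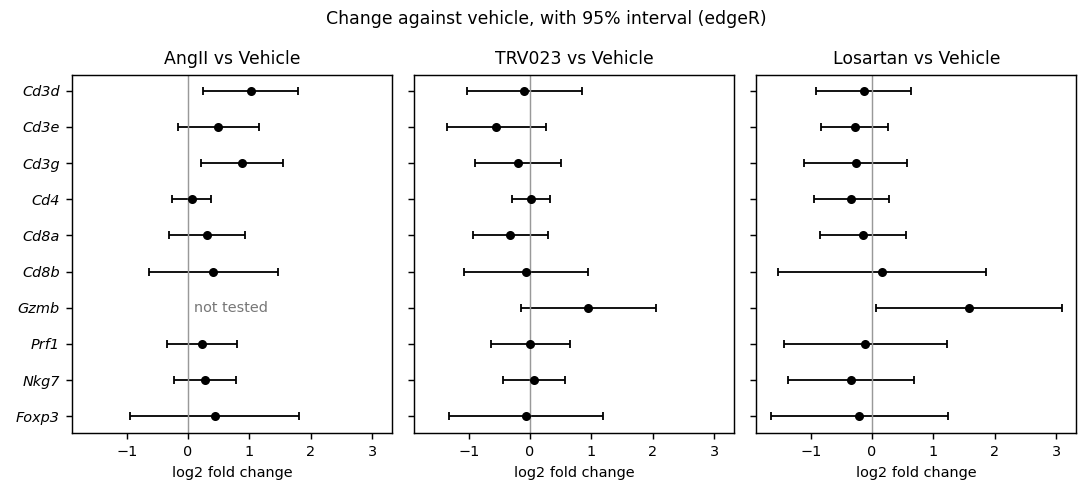
Log2 fold change against vehicle (horizontal axis) of each member in the 3 drug groups, with 95% intervals from edgeR. The intervals of Cd3d (0.25 to 1.79) and Cd3g (0.22 to 1.54) for AngII and of Gzmb for losartan (0.06 to 3.09) lie above 0, and no member has an adjusted p under 0.05.

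Drug against drug, the 12 libraries were fitted together, at the unequal doses given above. AngII was higher than TRV023 for each CD3 chain, by log2 differences of 1.12 for Cd3d (SE 0.39, unadjusted p = 0.0130), 1.04 for Cd3e (SE 0.36, unadjusted p = 0.0135) and 1.08 for Cd3g (SE 0.30, unadjusted p = 0.00314). The edgeR adjusted p values were 0.329, 0.331 and 0.281. Without Ang2_931 or without Trv_917 the differences of Cd3d and Cd3e were 0.77 to 0.86 and no longer under 0.05 before adjustment, whereas Cd3g was under it with any 1 library left out. Cd8a was 0.63 higher (unadjusted p = 0.0405) and Gzmb 1.79 lower, at -1.79 (unadjusted p = 0.0354), with edgeR adjusted p of 0.426 and 0.410. Cd8a and Gzmb each stayed under an unadjusted p of 0.05 in 7 of 12 fits with 1 library left out. The number of members under it fell from 5 to 1 without Trv_917, to 2 without Ang2_931 and to 3 without Ang2_922 or without Trv_930. In these tests 4 of 10 members were higher at an unadjusted p under 0.05 (5.43% of all genes) and 1 lower (5.43%), and 0 were called after adjustment (0%). FPKM did not overlap for Cd3g on the higher side (4.34% of all genes) and for Gzmb on the lower side (14.6%).

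Between AngII and losartan, Cd3d differed by 1.17 (SE 0.39, unadjusted p = 0.0103), Cd3e by 0.79 (SE 0.36, unadjusted p = 0.0489), Cd3g by 1.15 (SE 0.30, unadjusted p = 0.00199) and Gzmb by -2.41 (SE 0.76, unadjusted p = 0.00766). The edgeR adjusted p values were 0.445, 0.542, 0.328 and 0.427. Thus 3 members were higher (4.69% of all genes) and 1 lower (4.49%) at an unadjusted p under 0.05, with 0 called (0%). FPKM did not overlap for Cd3d and Cd3g on the higher side (3.68%) and for Gzmb on the lower side (8.43%). Cd3e was under an unadjusted p of 0.05 in 3 of 12 fits with 1 library left out (0.53 to 1.05), and Cd3d in 11 of 12, all but the fit without Ang2_931 (0.87). Without Los_925, Gzmb differed by -1.62 (unadjusted p = 0.0636), and the losartan group was then lower than AngII in Prf1 (1.32, unadjusted p = 0.00624), Nkg7 (1.23, unadjusted p = 0.00381) and Cd4 (0.82, unadjusted p = 4.03e-04).

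TRV023 and losartan gave 0 members at an unadjusted p under 0.05 in either direction (2.29% and 2.27% of all genes) and 0 called (0%), and FPKM overlapped for all members (4.99% of all genes higher, 2.71% lower). The intervals were wide: -0.57 to 0.72 for Cd3g, -0.79 to 0.89 for Cd3d and -2.12 to 0.88 for Gzmb. Without Los_925, Prf1 (1.10, unadjusted p = 0.0172), Nkg7 (1.01, unadjusted p = 0.0122) and Cd4 (0.78, unadjusted p = 5.95e-04) were higher with TRV023 than with losartan. In the test of any difference among the 4 groups, 3 members were under an unadjusted p of 0.05, against 7.98% of all genes, namely Cd3g, Cd3d and Gzmb, with edgeR adjusted p of 0.5004, 0.569 and 0.597, and edgeR called 0 of 10 (0.0192% of all genes). DESeq2 called 1 member, Cd3g, in that test (adjusted p = 0.0217), for AngII against TRV023 (adjusted p = 0.0392) and for AngII against losartan (adjusted p = 0.0363).

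**Figure D4:**
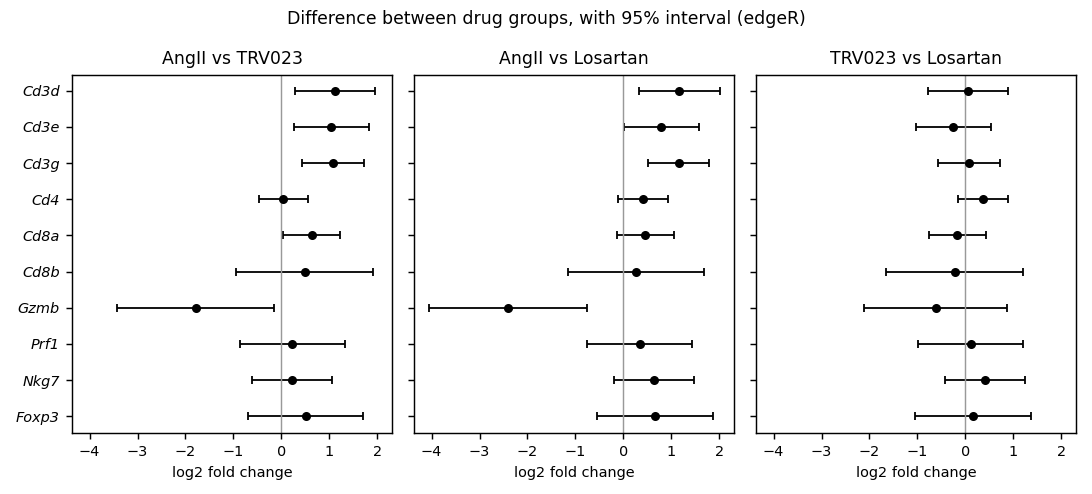
Log2 differences between drug groups (horizontal axis) of each member, with 95% intervals from edgeR on 12 libraries. The CD3 chains lie above 0 for AngII against TRV023 (1.12, 1.04 and 1.08) and AngII against losartan, Gzmb lies below 0 in both, and the TRV023 against losartan intervals all include 0.

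Further T and NK cell genes were read from 4 lists. Of 23 tested genes of T cell receptor signalling and the T cell surface, 5 were higher and 0 lower with AngII at an unadjusted p under 0.05, with a median log2 fold change of 0.32, and 0 were called. Over all genes 6.54% were higher and 5.39% lower in this comparison. Lat, the adaptor that gathers the signalling complex, was at 19.1, 30.4 and 15.6 FPKM in vehicle and 43.9, 51.6 and 30.5 with AngII (log2 fold change 1.09, SE 0.28, edgeR adjusted p = 0.323). The costimulatory receptor Cd27 (0.86, SE 0.29) and the surface receptor Cd6 (0.80, SE 0.27) were the other genes with the smallest p, each with an edgeR adjusted p of 0.372. With TRV023 0 genes of this list were higher (2.61% of all genes) and 0 lower (2.96%), with a median of -0.16. Among the smallest p values were those of Lcp2 (0.21) and Rasgrp1 (-0.45), both signalling proteins below the receptor. With losartan the count was also 0 in both directions (0.686% of all genes higher, 0.963% lower), with a median of -0.18. Cd28 (-1.04) and Trat1 (-0.93) led the list.

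Among the cytotoxic and NK cell genes, 2 of 25 tested were higher with AngII and 0 lower, with a median of 0.16: granzyme M, Gzmm (0.83, SE 0.29, edgeR adjusted p = 0.372), and the NK receptor Ncr3 (0.71, SE 0.29, edgeR adjusted p = 0.399), followed by the granule proteoglycan Srgn (0.41, SE 0.18). This count is near the 6.54% of all genes that were higher. Ncr3 was at 7.11, 6.64 and 4.73 FPKM in vehicle, 9.12, 10.5 and 7.80 with AngII, and 13.7, 10.5 and 8.24 with TRV023. Both peptide groups were above all vehicle rats for this gene. With TRV023 1 gene was higher, Ncr3 (0.81, SE 0.29, edgeR adjusted p = 0.778), and 1 lower, the Fc receptor Fcgr3a (-0.53, SE 0.23), of 26 tested, followed by Klrb1a (0.69). These counts are near the shares of all genes, 2.61% higher and 2.96% lower. With losartan 0 of 25 were under an unadjusted p of 0.05 (0.686% of all genes higher, 0.963% lower). Gzma (0.71), Cd226 (0.42) and Srgn (0.22) had the smallest p values there. The median of the cytotoxic list was 0.25 with TRV023 and 0.07 with losartan, beside 0.16 with AngII.

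In the regulatory and checkpoint list 0 genes were higher or lower at an unadjusted p under 0.05 with any drug. Tested were 13 genes for AngII and 12 each for TRV023 and losartan, with medians of 0.16, 0.16 and -0.18. Over all genes 6.54% were higher and 5.39% lower for AngII, 2.61% and 2.96% for TRV023, and 0.686% and 0.963% for losartan. Ctla4 (0.92, SE 0.43), Tnfrsf18 (0.80) and Tnfrsf9 (0.81) led for AngII, Icos (-0.60), Btla (-1.19) and Tnfrsf9 (0.95) for TRV023, and Lag3 (-0.69), Ctla4 (0.67) and Ikzf4 (0.42) for losartan. In the list of lineage, homing and cytokine genes, 1 of 19 tested was higher with AngII, the transcription factor Runx3 (0.83, SE 0.27), followed by Klf2 (0.60) and Lef1 (0.57). With TRV023 1 of 19 was higher, Klf2 (0.70, SE 0.22), which endothelium also expresses strongly. With losartan 1 was higher, Klf2 (0.90, SE 0.36), and 1 lower, the chemokine receptor Ccr6 (-1.50, SE 0.65). These counts of 1 are set against 6.54% of all genes higher for AngII, 2.61% for TRV023, and 0.686% higher and 0.963% lower for losartan. The edgeR adjusted p values of all these genes were above the threshold of 0.05.

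Markers of other leukocytes were read beside the CD3 chains for AngII, and edgeR called 0 of them after adjustment. At an unadjusted p under 0.05, where 6.54% of all genes were higher, 5 of 10 pan-leukocyte genes were higher, led by Coro1a (0.64, SE 0.13, edgeR adjusted p = 0.295). Of the macrophage genes 4 of 12 were higher, led by Trem2 (1.39, SE 0.32, edgeR adjusted p = 0.295), of the B cell genes 2 of 10, led by Blnk (0.72, SE 0.18, edgeR adjusted p = 0.311), and of the neutrophil genes 2 of 12, led by Padi4 (0.88, SE 0.36, edgeR adjusted p = 0.406). Summed over the pan-leukocyte list, FPKM was 1167 to 1258 with AngII and 1008 to 1079 in vehicle, with no overlap. By log2 fold change only 6 of its 10 genes were above 0 (median 0.31), so the whole list did not rise. The macrophage sum was 1243 to 1667 against 1095 to 1307, the B cell sum 185 to 235 against 160 to 201 and the neutrophil sum 242 to 460 against 153 to 346, all with overlap. Of the dendritic cell genes 1 of 8 was higher at an unadjusted p under 0.05, Cd83 (0.69, SE 0.23, edgeR adjusted p = 0.372). That list had 4 of 8 genes above 0 and a median of -0.08, and its sums of 81.2 to 99.1 against 70.1 to 92.0 overlapped. In the lymphoid tissue list 1 of 6 tested genes was higher, Ltb, the lymphotoxin beta that lymphocytes make. It was at 19.4, 21.7 and 22.7 FPKM in vehicle and 44.0, 49.3 and 38.8 with AngII (1.19, SE 0.15, edgeR adjusted p = 0.133). The summed level of that list overlapped, at 1127 to 1326 against 1071 to 1315. Of the thymocyte list 1 of 2 tested genes was higher, Dntt, the terminal transferase of early lymphocytes, at 0.0275, 0.455 and 0.164 FPKM in vehicle and 0.731, 0.877 and 1.21 with AngII (2.25, SE 0.83, edgeR adjusted p = 0.377). Rag1 and Rag2, which rearrange the receptor genes, were at 0 to 0.444 and 0 to 0.278 FPKM in those 6 libraries. Epithelial transcripts were present as for lung, with Sftpc at 5224 to 16391 FPKM in the 12 libraries. The part of the other cell types in the CD3 result was not tested.

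The mean of the CD3 chains and the mean of Gzmb, Prf1 and Nkg7 ordered the libraries differently. For the mean log2 CPM of Cd3d, Cd3e and Cd3g the highest libraries were Ang2_931 (1.09 above the mean of 12) and Ang2_922 (0.76), and the lowest was Trv_917 (-0.86). For Gzmb, Prf1 and Nkg7 the extremes were both losartan rats, Los_925 (1.13) and Los_964 (-1.07). In that mean Gzmb, at 1 to 63 reads a library, counts as much as Prf1 or Nkg7. Ang2_922 was at -0.62 with 1 Gzmb read, although Prf1 ranked 4 and Nkg7 ranked 7 of the 12 libraries there. The cytotoxic list had the same extremes. Of its 27 genes tested over 12 libraries, 10 were highest in Los_925 and 15 lowest in Los_964. Over all genes 9.29% were highest in Los_925 and 12.4% lowest in Los_964. Of the 23 T cell receptor and surface genes, 11 were highest in Ang2_931, against 14.4% of all genes, and 10 lowest in Los_964. The losartan split was thus not particular to the cytotoxic list. The summed T cell receptor and surface list was at 114 FPKM in Los_964, 227 in Los_925 and 228 in Ang2_931. The cytotoxic sum was at 221 FPKM in Los_964 and 436 in Los_925. Beside this, Los_964 had the highest epithelial sum (54023 FPKM) and the highest endothelial sum (1555 FPKM) of the 12 libraries and the highest neutrophil sum of its group (724 FPKM), and their part in the low cytotoxic values was not tested.

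**Figure D5:**
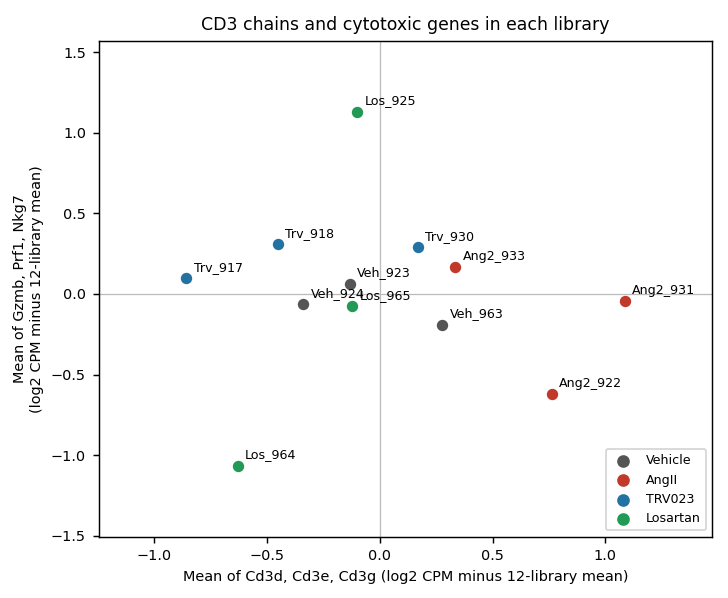
Mean log2 CPM of the CD3 chains (horizontal axis) and of Gzmb, Prf1 and Nkg7 (vertical axis), each minus its mean over 12 libraries, with 1 point per library coloured by group. AngII libraries lie to the right (0.33 to 1.09) and the losartan rats Los_925 and Los_964 lie at the top and bottom (1.13 and -1.07).

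The genes whose pattern over the 12 libraries was most like the CD3 mean, among 13714 genes with a mean of at least 1 FPKM, were TRBC2 (Pearson r = 0.957), the constant region of the T cell receptor beta chain, Ptprcap (r = 0.945), which binds CD45, Rltpr (r = 0.936), a scaffold of CD28 costimulation, LOC679811 (r = 0.927) and Pik3r2 (r = 0.927). Cd8a had r = 0.747, Nkg7 0.473, Cd4 0.439, Cd8b 0.378 and Prf1 0.366 with the same mean. For the mean of Gzmb, Prf1 and Nkg7 the most similar were Angel1 (r = 0.915), Zbtb9 (r = 0.897), Prps2 (r = 0.873), Scaf4 (r = 0.852) and Xpo5 (r = 0.842), and the NK receptor gene Klrb1a was at place 8 (r = 0.833), while the CD3 chains had r from -0.118 to 0.0977. The second mean includes Gzmb, at 1 to 63 reads a library. The part of Gzmb in the low r of the CD3 chains was not tested. These correlations describe 12 libraries that share groups and depth, and carry no test.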

How the data were processed

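Lung RNA of 12 MCT rats was sequenced, and groups were read from the labels. After alignment to rat, the authors tabulated whole read counts per gene. The AngII, TRV023 and losartan comparisons list 17836, 18569 and 18367 genes. The deposited FPKM values were made by the authors, and for the members they equal the count per gene length and counted reads within 2% wherever at least 10 reads were counted. Aligner, counting tool, build and strand: not given in the sources used here. A further 18 columns of scaled per-sample signal were not used, nor were columns with the authors' own log2 fold changes and p-values.

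Each drug was compared with vehicle on 6 libraries in edgeR 4.0.16 (R 4.3.3: filterByExpr, TMM, glmQLFit, glmQLFTest), and the drugs with each other on 12. Calls used a Benjamini-Hochberg adjusted p under 0.05 over all genes tested. SE came from the F statistic. The script was tested on simulated data. Alternatives were DESeq2 1.42.0, limma 3.58.1 (voom, and log2(FPKM + 1) or log2(FPKM + 0.1) with a mean of at least 1 FPKM), other scalings, filters and thresholds, a lowess gene length correction (span 0.3), all 12 libraries in 1 fit, and libraries left out. Log2 CPM used a prior count of 2.

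The named genes are all members, the 3 genes of each of the 4 further T and NK cell lists with the smallest p per drug, the leading gene of other lists and the 5 most similar genes, except a few that are not reported here; Rag1, Rag2, Sftpc, Klrb1a among the similar genes and similarity values of members were added after values were seen. Members and lists were chosen with earlier results of these data known. Whether rats shared litters or batches is not given, so p-values measure the spread between these rats.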

Additional observations from a re-analysis of the deposited data

How the results depend on the processing

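DESeq2 called 1 member, Cd3g, where edgeR called 0, for AngII against TRV023, for AngII against losartan and among the 4 groups, both over all listed genes and over the genes edgeR tested, the latter chosen after seeing the data; the cause was not tested. Other counts of members called were the same as with edgeR. Other changes of sign were small for some members and large for others. The losartan value of Prf1 was -0.11 in the main fit and 0.96 in the fit that kept 1 losartan rat. For AngII against vehicle, Cd4 was -0.086 with limma on log2(FPKM + 1), -0.088 with log2(FPKM + 0.1) and -0.069 with library totals. For TRV023, Prf1 was -0.018 with limma-voom, -0.033 and -0.048 with limma on log2(FPKM + 1) and log2(FPKM + 0.1), and -0.0043 with the gene length trend removed, and Foxp3 was 0.16 with limma-voom. For losartan, Cd8b was -0.33 with limma-voom, and -0.067 and -0.33 with limma on log2(FPKM + 1) and log2(FPKM + 0.1). Without Veh_963, a fit that also enters the ranges below, the TRV023 values were 0.12 for Cd3d, 0.12 for Cd3g, -0.024 for Nkg7 and 0.13 for Foxp3. Without Veh_963, Los_964 and Los_965, the losartan values came from 1 losartan rat assumed to vary like vehicle. They were 0.41 for Cd3g, 0.27 for Cd4, 0.43 for Cd8a, 0.96 for Prf1 and 0.31 for Nkg7.

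With 1 library left out at a time, Cd4 ranged from -0.069 to 0.16 for AngII. For TRV023 the ranges were -0.57 to 0.17 for Cd3d, -0.42 to 0.12 for Cd3g, -0.11 to 0.097 for Cd4, -0.25 to 0.21 for Cd8b, -0.32 to 0.18 for Prf1, -0.13 to 0.16 for Nkg7 and -0.48 to 0.29 for Foxp3. For losartan they were -0.32 to 0.069 for Cd3d, -0.49 to 0.052 for Cd3g, -0.37 to 0.079 for Cd8a, -0.85 to 0.65 for Cd8b, -1.09 to 0.32 for Prf1, -0.94 to 0.027 for Nkg7 and -0.63 to 0.14 for Foxp3. For AngII, Cd3d stayed at 0.73 to 1.23 and Cd3g at 0.65 to 1.19. Of the members' log2 fold changes against vehicle under the alternatives, 492 kept their direction and side of the threshold and 46 changed sign. These counts do not measure stability. The setting with a looser threshold reused the main fit, and the fit without Veh_963 entered more than once for AngII and TRV023. No member was called against vehicle in any setting, so the side of the threshold did not vary. No paired analysis was possible because the groups share no animal numbers. Depth limits Gzmb most, at 1 to 63 reads a library.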
